A study of Homo sapiens with 12 samples.

Results

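The 9 genes described here are regulators of cellular sterol, chosen by name and joined by Ensembl identifier from a pair of raw count tables that share 30358 genes. On the side of the sterol regulatory element-binding proteins (SREBPs) are 5 genes, *SREBF1*, *SREBF2*, *INSIG1*, *INSIG2* and *SCAP*. On the side of the liver X receptors (LXRs) are 3 target genes, *ABCA1*, *ABCG1* and *MYLIP*, and the receptor gene *NR1H2*. All 9 were listed in both tables and passed the filter on low counts in both. RNA-seq was performed on 12 libraries in 4 groups of 3 biological replicates, all with wild-type genotype. Cultures labelled KYSE30 (a line from an esophageal squamous cell carcinoma) and cultures labelled U138MG (the name of a glioblastoma line) were grown for 48 h with 100 nM PTDSS1i or with the vehicle DMSO. PTDSS1i is DS55980254, a small-molecule inhibitor of PTDSS1, an enzyme that makes phosphatidylserine. A single dose and a single time point were measured, KYSE30 was batch 1 and U138MG was batch 2, and batch and line cannot be told apart. The labels give the KYSE30 medium for every culture, whereas the study's methods give another medium for U138MG.

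SREBPs are made as membrane precursors that SCAP escorts from the endoplasmic reticulum to the Golgi, where proteases release the part that enters the nucleus and switches on genes of sterol and fatty acid synthesis. When sterol is plentiful, the INSIG proteins hold SCAP in the endoplasmic reticulum, and *INSIG1* is itself an SREBP target. LXRs bind oxysterols and switch on genes that remove cholesterol, such as the exporters *ABCA1* and *ABCG1*, and *MYLIP* (also called IDOL), whose product marks the LDL receptor for degradation.

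The promoter windows of *SREBF2* and *INSIG1* are printed because these genes code for the regulator and the feedback arm of the pathway, and a short site of *ABCA1* is printed because it holds letters that LXRs are known to bind. The sequences come from RefSeq (GRCh38.p14), in which 8 of the 9 members had a promoter window, and positions are counted back from the RefSeq start of the gene. The promoter stretches of *SREBF2* and *INSIG1* end where either RefSeq or GENCODE first starts the gene, and the *ABCA1* site lies upstream of the RefSeq start and just inside the GENCODE gene. They lie at chr22:41832855-41833078 (plus strand), chr7:155297628-155297775 (plus strand) and chr9:104928203-104928231 (minus strand), each read 5′ to 3′ on the gene's strand. Capitals mark a sterol regulatory element core (TCACNCCAC), a CCAAT box (here as ATTGG, its reverse complement) and a direct repeat with a spacer of 4 bases (GGTNA, any 5 bases and GGTNA, here on the opposite strand).
*SREBF2* promoter: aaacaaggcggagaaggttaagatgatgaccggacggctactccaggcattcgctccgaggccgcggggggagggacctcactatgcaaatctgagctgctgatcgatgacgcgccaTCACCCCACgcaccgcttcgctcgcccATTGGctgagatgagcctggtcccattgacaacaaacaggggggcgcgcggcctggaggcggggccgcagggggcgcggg
*INSIG1* promoter: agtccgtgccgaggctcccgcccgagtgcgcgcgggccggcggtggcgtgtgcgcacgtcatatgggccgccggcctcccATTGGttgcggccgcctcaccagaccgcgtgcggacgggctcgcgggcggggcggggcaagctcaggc
*ABCA1* repeat: caggcttTGACCGATAGTAACCtctgcgc

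Among the members' windows of 300 bases, the sterol core was found only in *SREBF2*, at -133, next to a CCAAT box at -106. Of 35116 promoter windows of the same length, 1.13% held the sterol core on either strand, 34.6% held a CCAAT box and 0.626% held the direct repeat. The direct repeat was found only in *ABCA1*, at -69. *INSIG1* had a CCAAT box at -170 and an E-box (CACGTG, in 7.26% of all windows) at -55, with no sterol core in this window. None of the 17 windows found for genes of cholesterol synthesis and uptake held the core letters. These are letter matches, with no measurement of binding.

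Both *SREBF* genes carry a microRNA of the miR-33 family in an intron, and the family is known for repressing *ABCA1*. The mature sequences share the seed UGCAUUG (bases 2 to 8, in capitals), and lie at chr22:41900949-41900969 (plus strand, within *SREBF2*) and chr17:17813897-17813916 (minus strand, within *SREBF1*). The seed match CAATGCA occurred 4 times in the longest *ABCA1* 3′ UTR of 3313 bases, while 17.1% of 2048 3′ UTRs of similar length held any match and 0.0977% held at least 4. Overlapping matches were counted separately, and those that start at bases 135 and 140 of the *ABCA1* 3′ UTR share letters. Of the other members only *SCAP* had a match, 1 in number. A site of the proximal cluster (chr9:104784169-104784175, minus strand) and the distal site (chr9:104782834-104782840, minus strand) are shown with 10 bases on each side.
hsa-miR-33a-5p: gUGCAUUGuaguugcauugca
hsa-miR-33b-5p: gUGCAUUGcuguugcauugc
*ABCA1* proximal site: ctattcaatgCAATGCAattcaatgca
*ABCA1* distal site: ttaattgcaaCAATGCAaaagccaaga
Poly-A libraries do not measure mature microRNAs, so no level of either is given.

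Library totals lay between 18800932 and 26514658 counts, so that 3 counts corresponded to 0.113 to 0.160 CPM (counts scaled to a common library total) depending on the library. All replicate pairs differed beyond sampling noise (chi-square over its degrees of freedom, 2.29 to 7.44). The squamous markers other than *KRT14* went against the second label, and the glial and mesenchymal markers were mixed. In the DMSO libraries labelled U138MG, the squamous keratin genes *KRT5* and *KRT15* were at 1469.5 and 4861 CPM, and *KRT14* was at 0.198 CPM. *EPCAM* was at 248 CPM, *CDH1* at 463 and *TP63* at 276. Of the mesenchymal genes, *VIM* was at 0.206 CPM, and *SPARC*, *FN1*, *COL1A1* and *CDH2* were at 713, 75.8, 54.5 and 11.9 CPM. The glial genes *OLIG2* and *S100B* were at 0, with *SOX2* at 38.9 CPM and *GFAP* at 2.36 CPM. The DMSO libraries of KYSE30 held *EPCAM* at 280 CPM and *TP63* at 98.2 CPM, with *KRT5* at 0.0608 CPM. They also held *CDH1* at 514 CPM, *KRT15* at 41.3 and *KRT14* at 0.355, with *SOX2* at 99.4, *FN1* at 98.3 and *VIM* at 3.99. The second set is therefore named by its label throughout, as U138MG-labelled libraries.

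Within each line, PTDSS1i and DMSO libraries were compared by the quasi-likelihood test of edgeR, with p-values adjusted over all tested genes by the Benjamini-Hochberg method, and a gene was called at an adjusted p under 0.05. Standard errors (SE) are those of the log2 fold change. In KYSE30 cells 5 members were higher and 3 were lower, against 30.1% of all 16389 tested genes higher and 32.0% lower. Among U138MG-labelled libraries 6 members were higher and 3 were lower, against 33.9% and 33.6% of 17666 tested genes. The treated and control libraries did not overlap for any of the 9 members in either line, which was also the case for 66.3% of all tested genes in KYSE30 and 71.4% in the libraries labelled U138MG. With such a background the number of members called is not a result about the members, and their sizes and directions are described instead. Scaled by library size alone, the median log2 fold change of all genes moved from -0.03 to -0.13 in KYSE30 and from -0.03 to -0.17 in the libraries labelled U138MG. The split of higher and lower genes then moved from 4927 and 5238 to 3932 and 6460 in KYSE30, and from 5989 and 5930 to 4533 and 7694 in the libraries labelled U138MG. Relative to the median of all genes, each member kept its sign under every scaling and with DESeq2.

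*INSIG1*, which codes for the sterol-sensing anchor of SCAP, had the largest rise of the 9 members in both lines. In KYSE30 cells the 3 DMSO libraries held 98.8, 84.7 and 93.9 normalized CPM, and the 3 PTDSS1i libraries held 518, 506 and 521. All treated libraries stood far above all controls. The log2 fold change was 2.48 (SE 0.059, adjusted p = 2.04e-18), or 5.57-fold with a 95% interval of 5.12 to 6.06. For the libraries labelled U138MG the DMSO values were 128, 120 and 130 normalized CPM and the PTDSS1i values 313, 314 and 318. The treated libraries were again the higher ones, by a log2 fold change of 1.32 (SE 0.036, adjusted p = 9.68e-23), or 2.50-fold. The rise was smaller in the libraries labelled U138MG by 1.19 on the log2 scale (interaction of line and treatment, adjusted p = 2.30e-15).

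*INSIG2*, the second SCAP anchor, was expressed at a lower level. It went from 16.7, 18.3 and 19.0 normalized CPM to 37.6, 34.5 and 35.1 in KYSE30 cells, without overlap. This was a log2 fold change of 0.99 (SE 0.073, adjusted p = 1.13e-10). U138MG-labelled libraries went from 30.7, 33.8 and 34.3 to 40.9, 40.5 and 37.7, a log2 fold change of 0.27 (SE 0.060, adjusted p = 0.000327). The smaller rise was not called when only library size was used for scaling (0.12, adjusted p = 0.0852) or with upper-quartile scaling (0.12, adjusted p = 0.0769). The lines differed by -0.76 (adjusted p = 5.76e-08). Per kilobase of merged exon, the level of *INSIG1* over that of *INSIG2* was 5.59 ± 0.718 with DMSO and 15.6 ± 0.626 with PTDSS1i in KYSE30 cells (SD, n = 3). The same ratio was 4.15 ± 0.330 and 8.61 ± 0.459 in the libraries labelled U138MG. The treated ratios exceeded every control ratio in both lines.

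*SREBF2*, which codes for the SREBP that mainly drives cholesterol synthesis, rose in both lines, and *SREBF1*, whose products mainly drive fatty acid synthesis, fell in U138MG-labelled libraries and was not called in KYSE30 cells. In KYSE30 cells *SREBF2* was at 241, 240 and 230 normalized CPM with DMSO and at 489, 457 and 467 with PTDSS1i. The log2 fold change was 0.99 (SE 0.051, adjusted p = 2.96e-13), just under the threshold of 1 that also marked large changes. The gene was at 421, 419 and 423 normalized CPM with DMSO and at 499, 500 and 507 with PTDSS1i in U138MG-labelled libraries, a log2 fold change of 0.25 (SE 0.032, adjusted p = 5.93e-08). Here the control libraries already stood near the treated level of KYSE30 cells, a comparison of levels across batches that was not tested. This change differed between the lines by -0.78 (adjusted p = 1.39e-12).

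In KYSE30 cells *SREBF1* was at 860, 861 and 842 normalized CPM with DMSO and at 897, 923 and 925 with PTDSS1i. The groups did not overlap, yet the log2 fold change of 0.10 (95% interval -0.01 to 0.20, adjusted p = 0.0966) missed the threshold, and with library size alone it was -0.0064 (adjusted p = 0.904). It was called with DESeq2 (0.11, adjusted p = 0.0291), with both lines fitted together (0.14, adjusted p = 0.0092) and without DMSO replicate 1 (0.11, adjusted p = 0.0362). *SREBF1* fell in U138MG-labelled libraries from 233, 223 and 232 to 214, 210 and 188, a log2 fold change of -0.17 (SE 0.042, adjusted p = 0.00144). An interaction of -0.31 (adjusted p = 0.000192) was found between the lines. Of the exon bases of *SREBF1*, 6.92% are shared with *RAI1* on the opposite strand, and *RAI1* had log2 fold changes of 0.16 in KYSE30 and -0.27 in the libraries labelled U138MG. The use of strand in counting is not given in the sources used here, so reads from the shared stretch cannot be told apart. Gene counts also do not separate the *SREBF1* isoforms SREBP-1a and SREBP-1c. The per-kilobase level of *SREBF2* over that of *SREBF1* was 0.295 ± 0.0040 with DMSO and 0.547 ± 0.0279 with PTDSS1i in KYSE30 cells, and 1.95 ± 0.0409 and 2.62 ± 0.211 in the libraries labelled U138MG (SD, n = 3).

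*SCAP*, the escort of the SREBP precursors, fell slightly in both lines. It went from 78.1, 69.8 and 68.3 normalized CPM to 62.2, 58.3 and 60.8 in KYSE30 cells, a log2 fold change of -0.25 (SE 0.060, adjusted p = 0.00100). With the label U138MG it went from 70.5, 68.9 and 67.0 to 52.5, 56.2 and 57.1, a log2 fold change of -0.32 (SE 0.047, adjusted p = 1.14e-06). *SCAP* was the only member whose change was not called different between the lines, with an interaction of -0.10 (95% interval -0.26 to 0.06, adjusted p = 0.294). It was called with upper-quartile scaling (-0.21, adjusted p = 0.0192) and without KYSE30 DMSO replicate 1 (-0.18, adjusted p = 0.0389).

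*NR1H2* codes for LXRβ, the LXR that most tissues express. It rose from 91.0, 92.5 and 83.7 normalized CPM to 129, 122 and 127 in KYSE30 cells, a log2 fold change of 0.50 (SE 0.054, adjusted p = 4.54e-08). The rise in U138MG-labelled libraries was from 82.2, 89.2 and 84.0 to 158, 157 and 167, a log2 fold change of 0.91 (SE 0.040, adjusted p = 8.91e-18). The control levels of the lines were close, and the treated levels were further apart, with a difference in change of 0.37 (adjusted p = 2.71e-05).

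The 3 LXR targets did not move as a block. *MYLIP*, the ligase for the LDL receptor, fell in both lines. It went from 26.2, 31.3 and 28.9 normalized CPM to 18.5, 16.4 and 15.3 in KYSE30 cells, a log2 fold change of -0.79 (SE 0.085, adjusted p = 5.26e-08), or 1.72-fold lower. Under the U138MG label it went from 90.8, 92.9 and 95.8 to 47.7, 44.5 and 48.0, a log2 fold change of -0.995 (SE 0.046, adjusted p = 2.40e-17), or 1.99-fold lower. The difference between the lines was -0.25 (adjusted p = 0.0306). That difference was lost without any of 4 libraries, namely KYSE30 DMSO replicate 1 (-0.20, adjusted p = 0.0732), KYSE30 PTDSS1i replicate 1 (-0.18, adjusted p = 0.138), U138MG DMSO replicate 3 (-0.24, adjusted p = 0.0538) and U138MG PTDSS1i replicate 2 (-0.23, adjusted p = 0.0669).

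*ABCA1*, which loads cholesterol and phospholipid onto apolipoprotein A-I, moved in opposite directions. In KYSE30 cells it fell from 8.60, 9.53 and 9.06 normalized CPM to 5.03, 4.74 and 5.49, a log2 fold change of -0.83 (SE 0.12, adjusted p = 2.33e-06), or 1.77-fold lower. A rise from 15.7, 19.9 and 17.7 to 22.2, 22.1 and 21.1 was seen in U138MG-labelled libraries, a log2 fold change of 0.29 (SE 0.083, adjusted p = 0.00304). The fall in KYSE30 was called under every alternative tried, with values between -0.93 and -0.78. The rise in the libraries labelled U138MG was not called with library size alone (0.14, adjusted p = 0.131) or with upper-quartile scaling (0.14, adjusted p = 0.125). The difference between the lines was 1.08 (SE 0.14, adjusted p = 1.44e-07).

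*ABCG1*, which exports cholesterol to high-density lipoprotein, rose in both lines. It went from 5.18, 6.91 and 6.97 normalized CPM to 7.78, 8.82 and 8.54 in KYSE30 cells, a log2 fold change of 0.40 (SE 0.12, adjusted p = 0.00895). The lowest treated library lay above the highest control. This call was lost with library size alone (0.29, adjusted p = 0.0656) and without DMSO replicate 1 (0.28, adjusted p = 0.0513). U138MG-labelled libraries went from 20.3, 25.5 and 22.6 to 50.5, 48.7 and 44.9, a log2 fold change of 1.07 (SE 0.071, adjusted p = 5.36e-12), or 2.10-fold. The rise was larger there by 0.64 (adjusted p = 0.000403).

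**Figure D1:**
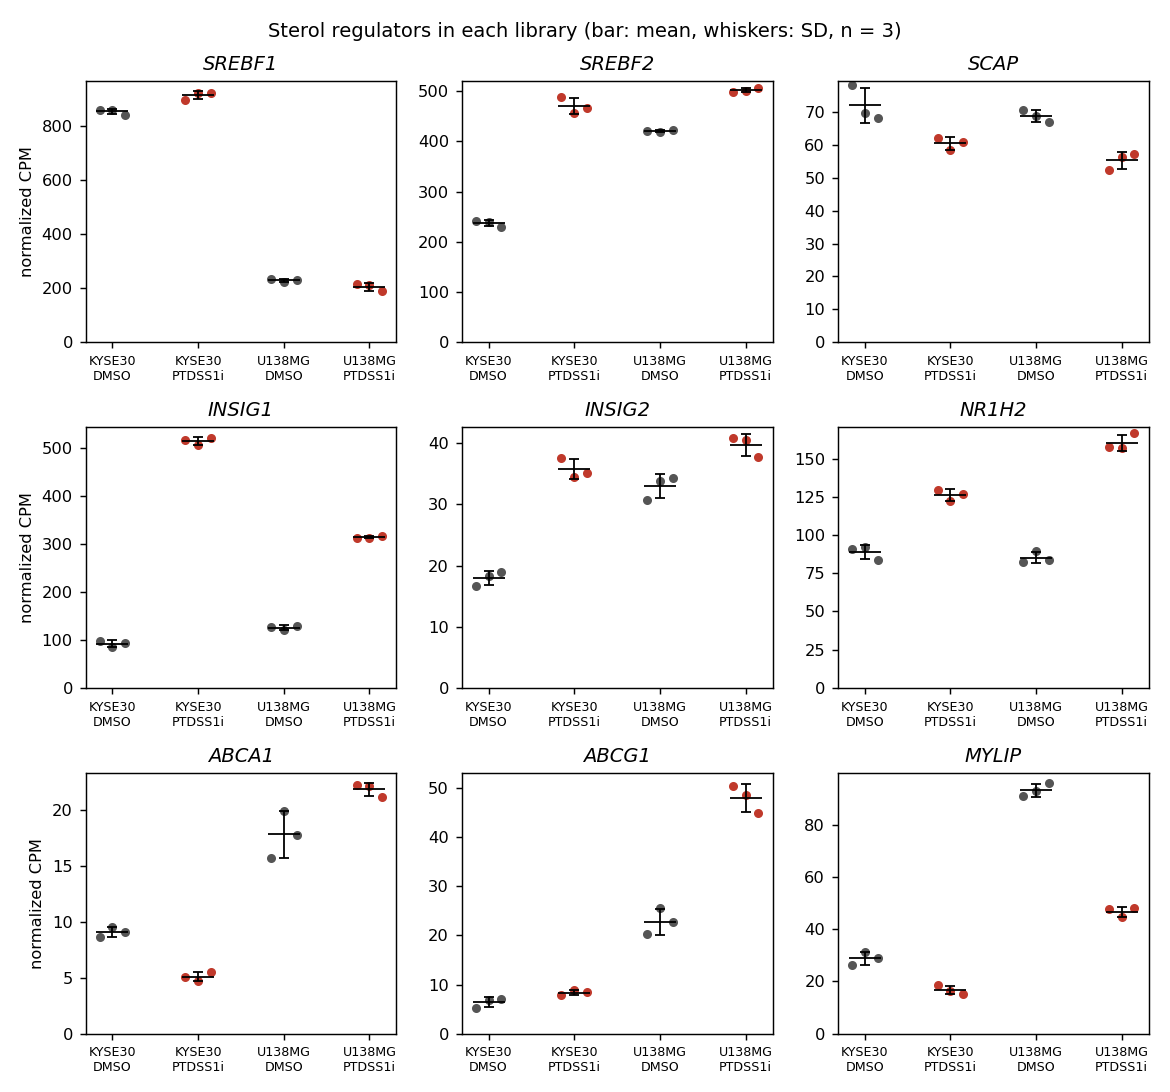
Normalized CPM (linear axes from 0) of each of the 9 genes in each library, with KYSE30 and the libraries labelled U138MG side by side; the horizontal bar is the mean and the whiskers are the SD of 3 libraries. The PTDSS1i and DMSO points are apart for every gene in both lines, most widely for *INSIG1* in KYSE30 cells, and *ABCA1* goes down in KYSE30 and up in the libraries labelled U138MG.

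Set side by side, the SREBP-side genes and the LXR targets had medians of opposite sign in KYSE30 cells and of the same sign in the libraries labelled U138MG. In KYSE30 cells the median log2 fold change was 0.99 over the 5 SREBP-side genes (range -0.25 to 2.48, 3 higher and 1 lower) and -0.79 over the 3 LXR targets (range -0.83 to 0.40, 1 higher and 2 lower). The medians in U138MG-labelled libraries were 0.25 (range -0.32 to 1.32, 3 higher and 2 lower) and 0.29 (range -0.995 to 1.07, 2 higher and 1 lower). The median of all tested genes was -0.03 in each line. As a background to the counts, 30.1% of all tested genes were higher and 32.0% lower in KYSE30. In the libraries labelled U138MG these shares were 33.9% and 33.6%, and counts over so few genes are not a result about the sides. The members are not replicates of a condition, so no test was made between the sides. A rise past the fold threshold of 1 on the log2 scale was seen for *INSIG1* in KYSE30 cells, where 6.4% of all tested genes had such a rise, and for *INSIG1* and *ABCG1* in the libraries labelled U138MG, where 8.19% did. Because *SREBF2* and *INSIG2* lay at the threshold in KYSE30 cells, this count of 1 became 3 with DESeq2 and with both lines fitted together. It was also 3 without PTDSS1i replicate 2 or 3, and 2 without DMSO replicate 1 or 3. In the libraries labelled U138MG, *ABCG1* lay under the threshold with library size alone and with upper-quartile scaling (0.92 in each). *MYLIP* then lay past it as a fall (-1.14 in each).

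Between the lines, 8 of the 9 changes were called different, 3 higher and 5 lower in the libraries labelled U138MG, against 49.9% of 18405 tested genes, 25.5% higher and 24.4% lower. The 3 with a higher change were *ABCA1*, *ABCG1* and *NR1H2*, and the 5 with a lower change were *SREBF1*, *SREBF2*, *INSIG1*, *INSIG2* and *MYLIP*. Of the members, 7 had the same sign in both lines and 2, *SREBF1* and *ABCA1*, had opposite signs, although with library size alone *SREBF1* was below 0 in both.

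**Figure D2:**
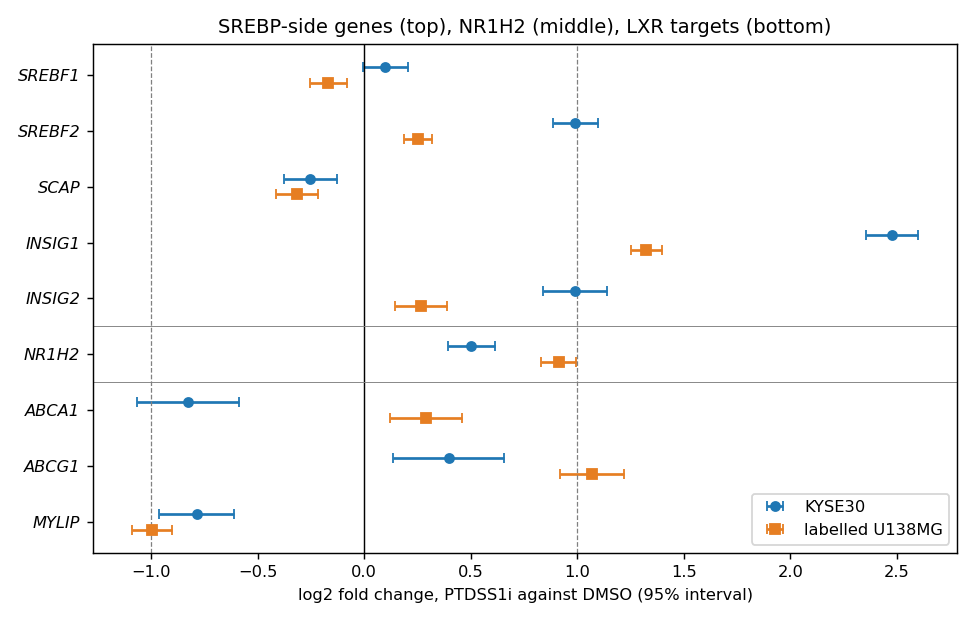
Log2 fold change of PTDSS1i against DMSO (horizontal axis) for each gene, with 95% intervals, in KYSE30 (circles) and in the libraries labelled U138MG (squares); dashed lines mark a change of 1 in either direction. The points of *INSIG1*, *INSIG2* and *SREBF2* lie further to the right in KYSE30. Those of *ABCA1*, *ABCG1* and *NR1H2* lie further to the right in the libraries labelled U138MG. The intervals of the lines overlap for *SCAP* and for *MYLIP*.

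Levels were also compared between genes, per kilobase of merged exon, and the order depended in part on the length used. In KYSE30 cells with DMSO the order was *SREBF1* (106 CPM per kilobase), *SREBF2* (31.4), *INSIG1* (25.3), *NR1H2* (23.7), *SCAP* (11.2), *MYLIP* (9.49), *INSIG2* (4.55), *ABCG1* (1.04) and *ABCA1* (0.799). *INSIG1* and its neighbour *NR1H2* overlapped in their libraries. With PTDSS1i *INSIG1* led the order at 141 CPM per kilobase, above *SREBF1* at 114 and *SREBF2* at 62.3. These were followed by *NR1H2* (33.6), *SCAP* (9.40), *INSIG2* (9.04), *MYLIP* (5.51), *ABCG1* (1.37) and *ABCA1* (0.448), and only *SCAP* and *INSIG2* overlapped. U138MG-labelled libraries with DMSO had the order *SREBF2* (55.7), *INSIG1* (34.5), *MYLIP* (30.7), *SREBF1* (28.5), *NR1H2* (22.7), *SCAP* (10.7), *INSIG2* (8.34), *ABCG1* (3.73) and *ABCA1* (1.57). The order with PTDSS1i was *INSIG1* (86.3), *SREBF2* (66.4), *NR1H2* (42.7), *SREBF1* (25.4), *MYLIP* (15.4), *INSIG2* (10.0), *SCAP* (8.59), *ABCG1* (7.84) and *ABCA1* (1.92), with overlap only between *SCAP* and *ABCG1*. *ABCA1* had the lowest per-kilobase level of the 9 in all 4 groups, between 0.448 and 1.92 CPM per kilobase, and was also lowest by the length of the longest transcript. By that length *SREBF1* (197 CPM per kilobase) stayed above *INSIG1* (171) in KYSE30 cells with PTDSS1i, and *NR1H2* (37.4) lay above *INSIG1* (30.7) with DMSO. In U138MG-labelled libraries with DMSO, *SREBF1* (49.2) then lay above *INSIG1* (41.8), and both *SREBF1* and *NR1H2* (35.8) lay above *MYLIP* (33.3). With PTDSS1i there, *ABCG1* (13.8) had a mean above those of *SCAP* (12.6) and *INSIG2* (12.5), and *ABCG1* overlapped *SCAP* and *SCAP* overlapped *INSIG2*.

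**Figure D3:**
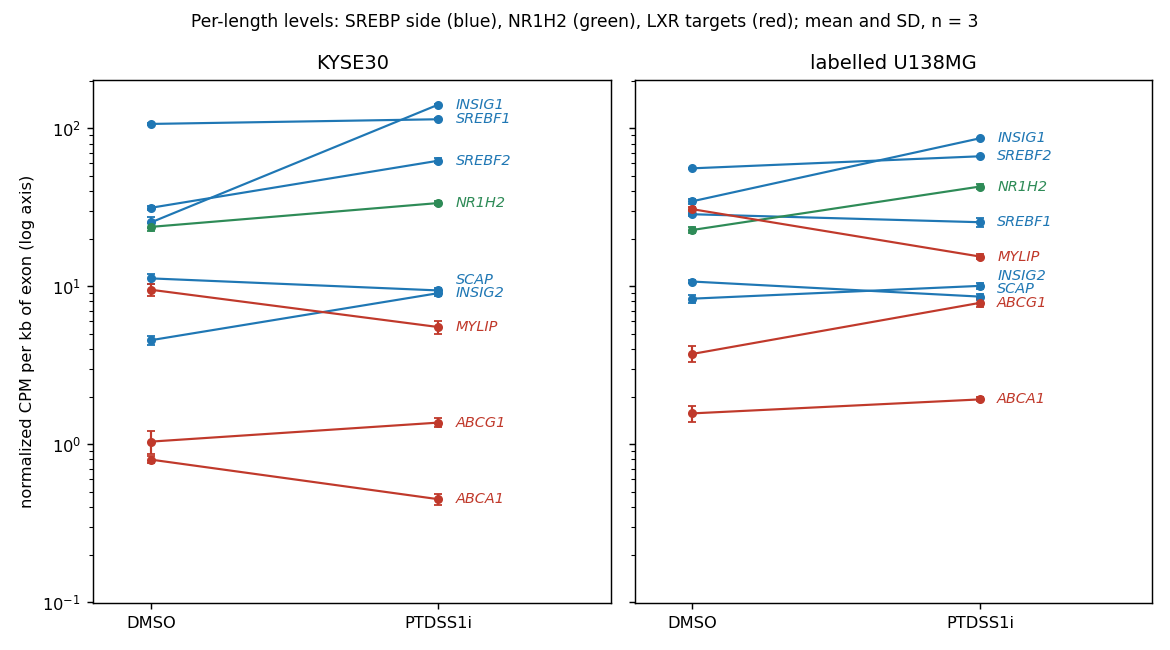
Normalized CPM per kilobase of merged exon (log axis) with DMSO and with PTDSS1i in each line; points are means and bars the SD of 3 libraries, and colours separate SREBP-side genes, *NR1H2* and LXR targets. By this length the line of *INSIG1* climbs to the top in both panels, from 25.3 to 141 in KYSE30 (where *SREBF1* stays above it by longest transcript) and from 34.5 to 86.3 in the libraries labelled U138MG, and *ABCA1* stays lowest.

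Genes of cholesterol synthesis had the profiles most like that of *INSIG1*. Distances were taken over the 12 libraries among 11381 genes, on log2 values centred on the DMSO mean of each line. *FDFT1*, the squalene synthase gene, was nearest (distance 0.317), with log2 fold changes of 2.59 in KYSE30 and 1.45 in the libraries labelled U138MG. *IDI1* (0.463), the isopentenyl diphosphate isomerase gene, came next. For *ABCG1* the nearest were *UGDH* (0.337), *DDX59* (0.365) and *CLDN1* (0.367), none of them on the sterol lists.

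Genes of cholesterol synthesis and uptake, which SREBP-2 mainly drives, rose in both lines. Of 24 listed genes, all tested, 22 were higher and 1 was lower in KYSE30 cells, with a median log2 fold change of 2.24. In the libraries labelled U138MG 22 were higher and 2 lower, with a median of 1.53. Of all tested genes, 30.1% were higher and 32.0% lower in KYSE30, and 33.9% and 33.6% in the libraries labelled U138MG. *HMGCS1*, which codes for HMG-CoA synthase, rose from 67.6 ± 6.49 to 773 ± 32.2 normalized CPM in KYSE30 cells (SD, n = 3), a log2 fold change of 3.51. The same gene rose from 727 ± 24.5 to 3605 ± 114 in U138MG-labelled libraries, a log2 fold change of 2.31. *ACAT2*, which starts the mevalonate pathway, had the largest rise of the list in the libraries labelled U138MG (2.42). Of its exon bases, however, 33.9% are shared with *SOD2-OT1*, 26.5% with *SOD2* and 9.23% with *TCP1*, all on the opposite strand. *LBR*, a sterol reductase that is also a nuclear envelope protein, fell in both lines (-0.57 and -0.24), and *PMVK*, the phosphomevalonate kinase gene, fell in the libraries labelled U138MG (-0.24). The change differed between the lines for 20 of the 24, with 2 higher and 18 lower in the libraries labelled U138MG, against 25.5% of all tested genes higher and 24.4% lower.

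Genes of fatty acid synthesis, which SREBP-1 mainly drives, also rose in both lines. Of 13 tested genes, 11 were higher and 2 lower in KYSE30 cells (median log2 fold change 0.91). In the libraries labelled U138MG 11 were higher and 1 lower (median 1.29). The shares of all tested genes were 30.1% higher and 32.0% lower in KYSE30, and 33.9% and 33.6% in the libraries labelled U138MG. *ACSS2*, which makes acetyl-CoA from acetate, rose from 49.7 ± 1.97 to 570 ± 4.82 normalized CPM in KYSE30 cells and from 70.2 ± 2.24 to 511 ± 3.59 in the libraries labelled U138MG (SD, n = 3). *LPIN1*, a phosphatidate phosphatase gene, rose by 2.14 on the log2 scale in KYSE30 and by 1.66 in the libraries labelled U138MG. *GPAM*, which starts glycerolipid synthesis, fell in both (-0.41 and -0.32). *ELOVL6*, a fatty acid elongase gene, fell in KYSE30 cells (-0.46) and rose in the libraries labelled U138MG (1.85), with a difference of 2.27.

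Genes of SREBP processing and turnover moved in both directions. Of 14 tested, 6 were higher and 4 lower in KYSE30 cells (median log2 fold change 0.11), where 30.1% of all tested genes were higher and 32.0% lower. In U138MG-labelled libraries 8 were higher and 3 lower (median 0.26), where these shares of all tested genes were 33.9% and 33.6%. Counts this near the background are not a result about the list. *RNF145*, a ubiquitin ligase gene of sterol regulation, rose most, by 0.98 and by 1.76. *SPRING1*, whose product supports the site-1 protease, rose by 0.51 in KYSE30 and by 0.67 in the libraries labelled U138MG. *MBTPS1*, the site-1 protease gene itself, fell in the libraries labelled U138MG (-0.20) and rose in KYSE30 cells (0.32). *ERLIN1*, which takes part in the degradation of INSIG-bound proteins, fell by 0.87 in KYSE30 and by 0.19 in the libraries labelled U138MG. *PAQR3*, a Golgi anchor of SCAP, had values of -0.70 and 0.76, and 45.5% of its exon bases are shared with *BMP2K* on the opposite strand.

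The remaining genes around the LXRs were mixed, in lists of few tested genes to be read against the same shares of all genes. Of 5 tested receptor, partner and co-repressor genes, 2 were higher and 2 lower in KYSE30 cells (median log2 fold change 0.04), and 0 were higher and 4 lower in the libraries labelled U138MG (median -0.22). *NR1H3*, which codes for LXRα, fell in both lines (-0.36 and -0.44), unlike *NR1H2*. *RXRA*, which codes for a dimer partner of the LXRs, fell by 0.14 in KYSE30 and by 0.84 in the libraries labelled U138MG. *RXRB*, which codes for a further partner, had values of 0.17 in KYSE30 and -0.22 in the libraries labelled U138MG. The KYSE30 rise of *RXRB* was not called with library size alone. Of 6 other LXR targets tested of 10 listed, 2 were higher and 1 lower in KYSE30 cells (median 0.16), and 5 were higher and 1 lower in the libraries labelled U138MG (median 0.54). *APOE*, which codes for a cholesterol-carrying apolipoprotein, and *MERTK*, a receptor gene of dead-cell uptake, rose in the libraries labelled U138MG by 0.73 and 0.61. The 2 higher in KYSE30 cells were *APOE* (1.40) and *APOC1* (1.62), both there under the 5 CPM asked of named genes. Their KYSE30 means were 0.396 and 0.339 normalized CPM with DMSO, and 1.04 and 1.07 with PTDSS1i. Of the 6 listed genes that make or remove oxysterols, the ligands of the LXRs, 3 were tested in KYSE30 cells, with 2 higher (*SULT2B1* by 0.45 and *CYP7B1* by 0.22). Of the 6, U138MG-labelled libraries had 4 tested, with 3 lower and a median of -1.64, in part from genes of low level. Among these 3 was *CH25H*, itself too low to be named by rule and not listed for KYSE30. Its mean was 0.603 normalized CPM with DMSO and 0.0845 with PTDSS1i, the latter under the floor of 3 counts. In the libraries labelled U138MG *CYP7B1*, an oxysterol hydroxylase gene, was under the 5 CPM asked of named genes. *CYP7B1* averaged 3.83 ± 0.162 normalized CPM there with DMSO and 0.860 ± 0.0504 with PTDSS1i (SD, n = 3). It fell by 2.15 on the log2 scale (SE 0.23, edgeR adjusted p = 3.89e-09), and its change differed between the lines by -2.40 (edgeR adjusted p = 7.78e-12). *CYP39A1*, a further gene of this kind, fell there from 14.5 ± 0.417 to 6.58 ± 0.749 normalized CPM (SD, n = 3).

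**Figure D4:**
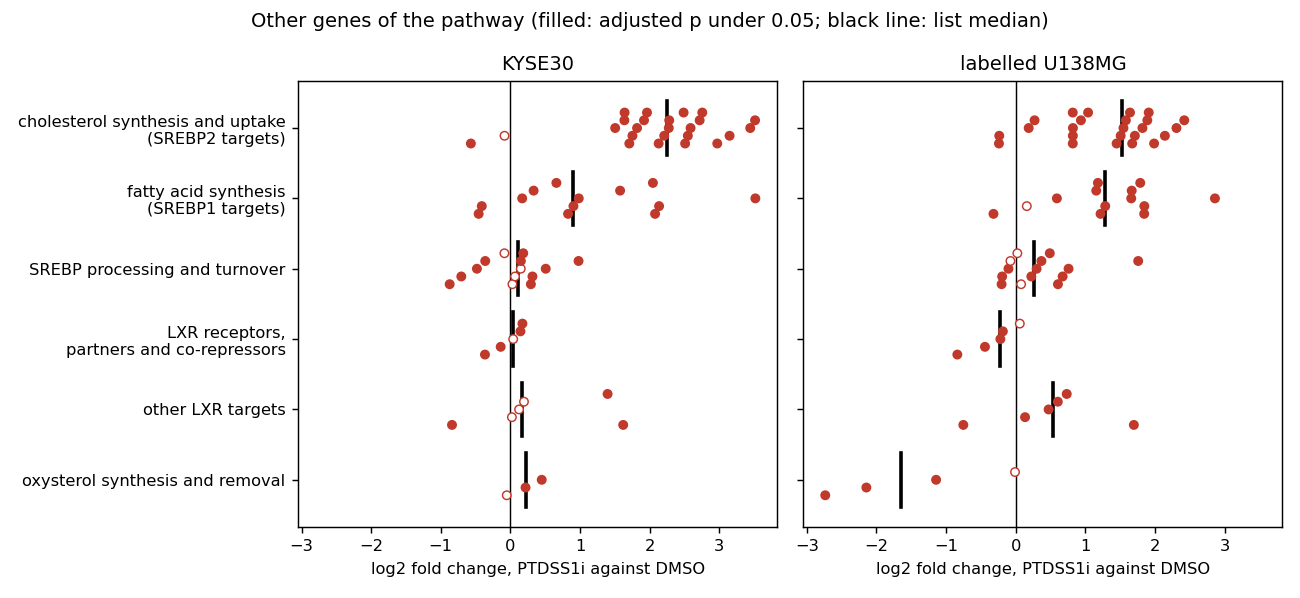
Log2 fold change of PTDSS1i against DMSO (horizontal axis, the same range in both panels) for each tested gene of the 6 pathway lists; filled points had an adjusted p under 0.05 and black lines mark list medians. The cholesterol list stands to the right in both lines, with medians of 2.24 and 1.53, and the lists around the LXRs spread on both sides of 0.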

How the data were processed

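Poly-A RNA was sequenced from 12 cultures, and the authors deposited raw read counts per gene, without normalization, in a table for each line. The submitters' processing notes name Trimmomatic, STAR, featureCounts and the build hg38. Versions, annotation and the strand setting are not given in the sources used here. Columns that belong to no sample numbered 0. Samples were grouped and numbered by their labels.

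The fits used edgeR 4.0.16 (with limma 3.58.1) under R 4.3.3, after TMM scaling and filterByExpr (count of at least 10, total of at least 15), by the robust quasi-likelihood test within each line, with Benjamini-Hochberg adjustment over all tested genes. The difference between the lines was the interaction of line and treatment over genes in both tables, scaled together, so that it need not equal the gap between the separate fits. Normalized CPM used the TMM factors, and log2 CPM a prior count of 2. Marker CPM used library totals. Lengths, overlaps and 3′ UTRs came from GENCODE v29 (GRCh38), and promoters and microRNAs from RefSeq. Alternatives were library size alone, upper-quartile scaling, DESeq2 1.42.0, other filters, a replicate block, both lines together and each library left out. Named list genes were up to 2 in each direction per list and line by fold change, having a mean of 5 CPM or more and treatments that did not overlap, and the 3 nearest profiles were named for members past the fold threshold. Some genes that this rule names are not reported here. The members and lists were chosen with earlier results of these data known. The fits were tested on simulated data. A level of 3 counts was taken as the floor, which covers counting error only. An exact permutation test of 3 libraries against 3 cannot reach a p under 0.05, so p-values come from the fits across all genes. In bulk RNA, fewer cells of a type and less RNA per cell cannot be told apart.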

Additional observations from a re-analysis of the deposited data

Results flagged for a closer look

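The effect of PTDSS1i differed between KYSE30 and the libraries labelled U138MG for 8 of the 9 members by the interaction test (edgeR, Benjamini-Hochberg adjustment). The differences in log2 fold change, libraries labelled U138MG minus KYSE30, were 1.08 for *ABCA1*, 0.64 for *ABCG1*, 0.37 for *NR1H2*, -0.25 for *MYLIP*, -0.31 for *SREBF1*, -0.76 for *INSIG2*, -0.78 for *SREBF2* and -1.19 for *INSIG1*. Of all 18405 genes tested, 49.9% differed. Line and batch cannot be told apart, and the groups of 3 libraries are too small for the test of lone libraries.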

How the results depend on the processing

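Under the alternatives, 380 values of single members kept their direction and their side of the threshold, 5 became called, 10 were no longer called and 1 changed sign. The change of sign was that of *SREBF1* in KYSE30 with library size alone (-0.0064, adjusted p = 0.904). The count of KYSE30 members past the fold threshold went from 1 to 3 with DESeq2 and with both lines together, and was 1 to 3 with a library left out. The difference of the side medians in the libraries labelled U138MG, -0.04, changed sign without U138MG DMSO replicate 1 (0.011, with a range of -0.13 to 0.011 over the libraries left out). With library size alone in KYSE30, 2 cholesterol genes were lower in place of 1, 0 LXR receptor, partner and co-repressor genes were higher in place of 2, and 1 oxysterol gene was higher in place of 2. Upper-quartile scaling and DESeq2 also gave 1 oxysterol gene, and leaving out a library gave 1 to 2, as it did for the receptor, partner and co-repressor genes in each direction. With at least 10 counts in every library, 0 other LXR targets were higher in KYSE30 in place of 2. In the libraries labelled U138MG, 5 SREBP processing genes were lower with library size alone and with upper-quartile scaling, in place of 3. The causes of these changes were not tested. Relative to the median of all genes, the KYSE30 value of *SREBF1* was 0.12 under each scaling.

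The replicate numbers paired the libraries weakly at most. Deviations of libraries with the same number correlated between -0.0029 and 0.0754. Of 12 libraries 9 correlated best with their own number, among them every KYSE30 library. With the replicate block, 10458 genes were called in KYSE30 (10165 without), 11942 in the libraries labelled U138MG and 9439 between the lines, and 5 members were higher and 3 lower in KYSE30, as without the block. No member call changed with it. Lowly expressed members such as *ABCA1* and *ABCG1* in KYSE30 have the widest intervals.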

Other observations

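*INSIG1-DT* (a long non-coding RNA gene) starts 220 bases from *INSIG1* and is read in the opposite direction. It was chosen after its values were seen. In KYSE30 cells it was at 4.55 ± 0.744 normalized CPM with DMSO and at 4.11 ± 0.391 with PTDSS1i (SD, n = 3), with a log2 fold change of -0.15 (adjusted p = 0.409, quasi-likelihood test of edgeR, Benjamini-Hochberg adjusted). It fell from 4.94, 5.68 and 3.99 to 1.84, 2.53 and 2.44 normalized CPM in U138MG-labelled libraries, a log2 fold change of -1.10 (SE 0.19, adjusted p = 1.30e-05), while *INSIG1* rose by 1.32. The difference between the lines was -0.99 (adjusted p = 0.00104). Over the alternatives, the value in the libraries labelled U138MG lay between -1.25 and -0.96, and the difference lay between -1.13 and -0.86, each called in every alternative. The counts behind these values were 42 to 133 per library in the libraries labelled U138MG.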
